A study of Drosophila melanogaster with 36 samples.

Results

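Heads of old flies were compared between ZT12 and ZT0, that is, between zeitgeber times 12 h apart in a daily cycle. The flies were w1118 females of Drosophila melanogaster, aged 55 days, and each sample pooled 400 whole heads. The comparison takes 6 of the 36 samples of a study that also covered flies of 5 days and the times ZT4, ZT8, ZT16 and ZT20, with 3 samples for each age and time. All samples share sex, genotype, tissue and preparation, and no treatment or transgene is named. By convention ZT0 is the time of lights on, but the light schedule is not given in the sources used here. The members are all listed small RNA features: 673 miRNA features, of which 495 are mature miRNA arms with a miRBase name and 178 carry an identifier beginning with rr, and 56 numbered piRNA clusters, each in a first and a second column set that the tables do not explain. After a filter on low counts over the 18 old libraries, 333 of the 673 miRNA features and 67 of the 112 piRNA features could be tested.

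MicroRNAs (miRNAs) are short RNAs that guide Argonaute proteins to messenger RNAs and lower their translation or stability. Each is cut from a hairpin, whose 5p and 3p arms can both be retained, usually at very different levels. In flies several of them tune the circadian clock and rest-activity rhythms: bantam and miR-276a act on clock genes, and miR-279 acts in the output pathway. PiRNAs are longer, bind Piwi proteins and silence transposons, and are best known from the gonads. No sequences are shown here.

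The 6 libraries held 20.4 to 23.4 M miRNA counts and 248722 to 374055 piRNA counts. Levels below are CPM, counts relative to the size of the miRNA (or piRNA) library after TMM scaling, which assumes that most features do not differ. At this depth the lowest value of miR-969-3p, 8.53 CPM, rested on 120 counts, and features near 1 CPM rest on far fewer, so counting error adds to their spread. The head label was matched by its markers in all 6 libraries: the neuronal miR-124-3p stood at 342 to 492 CPM, the photoreceptor miRNA miR-210-3p at 20145 to 32534 CPM and the fat body miRNA miR-8-3p at 133213 to 207179 CPM. Summed arms of the testis list stayed at 15.1 to 24.9 CPM. In whole heads fewer cells of a type and less RNA per cell cannot be told apart. The labels do not say whether replicates came from separate cohorts, so p-values measure the spread between these samples only.

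A pair of ZT0 libraries stood apart. Arms of the ovary miRNAs miR-318, miR-989 and miR-994 summed to 723 per M miRNA counts in ZT0 replicate 1 and to 13.3 to 54.4 in the other 5 libraries, and the second piRNA column set held 11526 counts there against 2330 to 4028. The 54.4 was that of ZT0 replicate 2, and the 12 other old libraries had 11.6 to 57.0 (median 15.8). Young heads had 552 in ZT4 replicate 3 and 889 in ZT8 replicate 3, with 6.06% and 5.96% of piRNA counts in the second set. In old ZT0 replicate 3 the share of miR-184-3p was 37.1%, against 8.63% to 12.8% in the other 5 old libraries compared, and the TMM factor was 0.623 where those were between 1.001 and 1.07. Among 162 distinct miRNA features averaging 10 CPM or more, ZT0 replicate 3 lay outside the range of the 15 old libraries of the other times for 92 features, replicate 1 for 24 and replicate 2 for 13. Leading results below are therefore given with and without ZT0 replicates 1 and 3. With both left out, replicate 2 alone stands for ZT0, so that fit gives effect sizes only.

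With all libraries, 0 of 333 miRNA features passed an adjusted p of 0.05 in edgeR's quasi-likelihood test in either direction, which is 0% called higher and 0% called lower. At an unadjusted p under 0.05 there were 47, of which 12 were higher and 35 lower at ZT12. DESeq2 called 11 features, 2 higher and 9 lower, and limma on log2(RPM + 1) called 0. The count rested on which ZT0 library was present: without ZT0 replicate 1 it was 7, without replicate 2 it was 23 and without replicate 3 it was 4. For 14 features (4.2% of those tested) all 3 ZT12 libraries lay above all 3 ZT0 libraries, and for 20 features (6.01%) all 3 lay below. Of the 35 features with lower levels at an unadjusted p under 0.05, 34 had ZT0 replicate 1 or 3 above all 15 libraries of the other times. Of the 12 with higher levels, 8 had ZT0 replicate 1 or 3 below all 15.

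**Figure D1:**
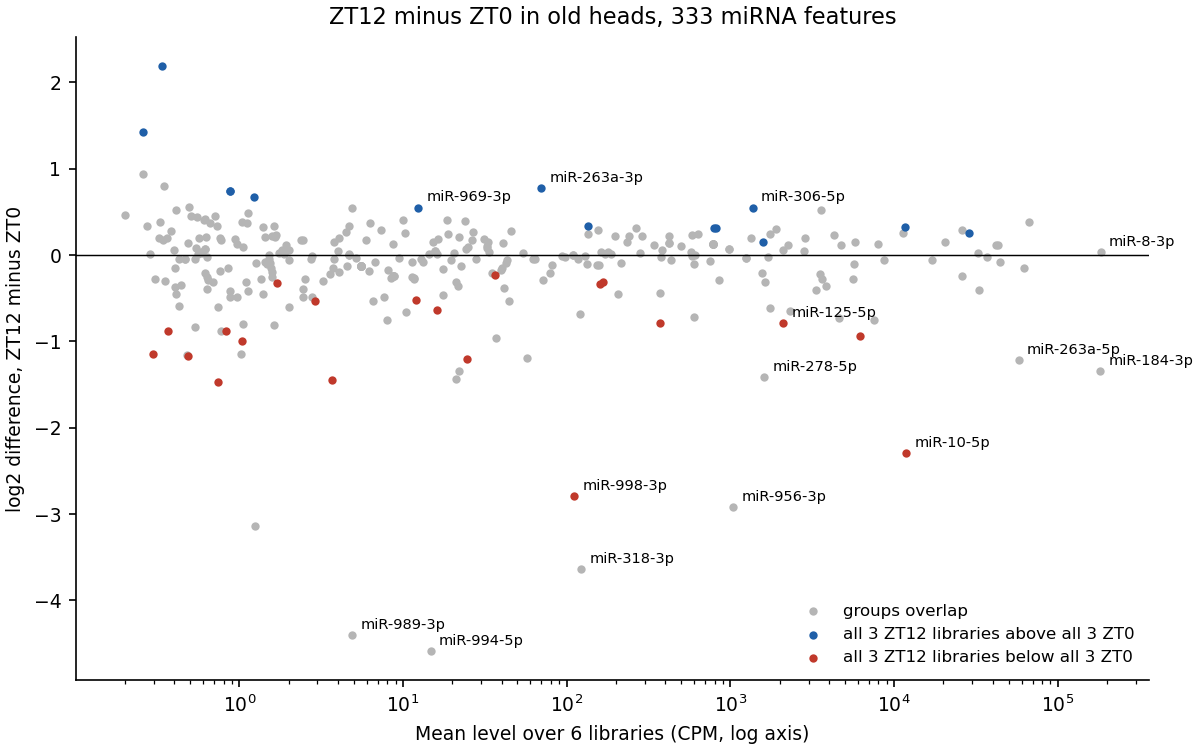
Log2 difference (ZT12 minus ZT0) of each of 333 miRNA features against its mean level over the 6 libraries (CPM, log axis). Blue points mark the 14 features whose ZT12 libraries all lie above the ZT0 libraries, red points the 20 whose ZT12 libraries all lie below, and the points furthest from 0 lie on the lower side.

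The 8 leading miRNAs with higher levels at ZT12 differed by 0.25 to 0.78 on the log2 scale, and none passed edgeR's test with all libraries. DESeq2 called miR-969-3p (adjusted p = 0.0284) and miR-263a-3p (adjusted p = 0.0318). Without ZT0 replicate 2, edgeR called miR-263a-3p (adjusted p = 0.0303) and miR-1008-5p (adjusted p = 0.0305). The smallest p among them belonged to miR-969-3p (chromosome X, 18124357 to 18124450, plus strand, outside annotated genes on that strand). Its level was 11.9, 9.77 and 8.53 CPM in ZT0 replicates 1, 2 and 3 and 15.5, 13.7 and 15.1 CPM at ZT12. The groups did not overlap, and the 3 ZT0 values also lay below every one of the 15 old libraries of the other times, whose range was 12.1 to 16.8 CPM. The log2 difference was 0.55 (SE 0.144, edgeR adjusted p = 0.0982), and it was 0.74 without ZT0 replicate 1 (adjusted p = 0.0389), 0.48 without replicate 3 (0.217) and 0.70 without both. Among the 162 features of at least 10 CPM it was the 1 whose ZT0 libraries all lay below the other 15.

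About 4 kb downstream on the same strand lies miR-210 (18128219 to 18128318), known from photoreceptors and clock circuits. Its 3p arm stood at 29602, 29055 and 20145 CPM at ZT0 and at 30620.0, 32534 and 30642 CPM at ZT12. The groups did not overlap, but without replicate 3 the gap between them was small. The difference was 0.25 on the log2 scale (SE 0.129, edgeR adjusted p = 0.42) and 0.13 without ZT0 replicate 3.

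The 3p arm of miR-263a, a miRNA that protects sense organ cells from cell death, had the largest difference among the 8 leading higher miRNAs. It stood at 59.7, 63.7 and 30.3 CPM at ZT0 and at 91.9, 71.8 and 100.5 CPM at ZT12. All ZT12 values were higher, and replicate 3 was the lowest of the ZT0 values. The log2 difference was 0.78 (SE 0.227, edgeR adjusted p = 0.115), and 0.55 without ZT0 replicate 3. Its hairpin, annotated as bft, lies on 2L from 11953410 to 11953503 (minus strand), exonic in lncRNA:CR43314.

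A further pair of these miRNAs share an intron of grp, the gene of the checkpoint kinase Chk1, on chromosome 2L (plus strand). miR-306-5p (hairpin 16698404 to 16698488) had 1249, 1217 and 864 CPM at ZT0 and 2014, 1324 and 1537 CPM at ZT12. miR-9b-5p (hairpin 16698744 to 16698834) had 736, 793 and 594 CPM at ZT0 and 911, 919.8 and 815 CPM at ZT12. Both had non-overlapping groups, with log2 differences of 0.55 (SE 0.197, edgeR adjusted p = 0.215) and 0.32 (SE 0.133, adjusted p = 0.26). Without ZT0 replicates 1 and 3 the values were 0.52 and 0.26. The other hairpins of this intron showed less: miR-9c-5p differed by 0.11 and miR-79-3p by 0.25, with overlapping groups. The opposite arms miR-306-3p and miR-9b-3p differed by 0.02 and -0.09, also with overlapping groups.

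miR-9a-5p, a relative of miR-9b that limits the number of sensory organ precursors, comes from another locus (chromosome 3L, 19565131 to 19565208, plus strand, in an exon of lncRNA:CR45916). Its levels were 10760.1, 11822 and 8374 CPM at ZT0 and 13891, 13157 and 11871 CPM at ZT12, a log2 difference of 0.33 (SE 0.138, edgeR adjusted p = 0.26). The lowest ZT12 library was only just above the highest ZT0 library. miR-996-5p, whose hairpin lies beside that of miR-279 on chromosome 3R, differed by 0.34 (139, 129 and 91.5 CPM at ZT0 against 153, 156 and 145). miR-7-5p, a regulator of photoreceptor differentiation, differed by 0.31 (771, 860.4 and 541 CPM against 894, 898 and 908), and miR-1000-5p, a neuronal miRNA, by 0.16. None of these passed the test, and in each the lowest ZT0 value was that of replicate 3. The remaining one of the 8, miR-1008-5p from an intron of CG18004, had overlapping groups (16.3, 20.4 and 11.4 CPM against 19.6, 22.5 and 21.7, log2 difference 0.40). Without ZT0 replicate 3 the differences were 0.23 for miR-9a-5p, 0.21 for miR-996-5p, 0.18 for miR-7-5p, 0.10 for miR-1000-5p and 0.25 for miR-1008-5p. Without replicates 1 and 3 they were 0.24, 0.34, 0.17, 0.16 and 0.16.

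**Figure D2:**
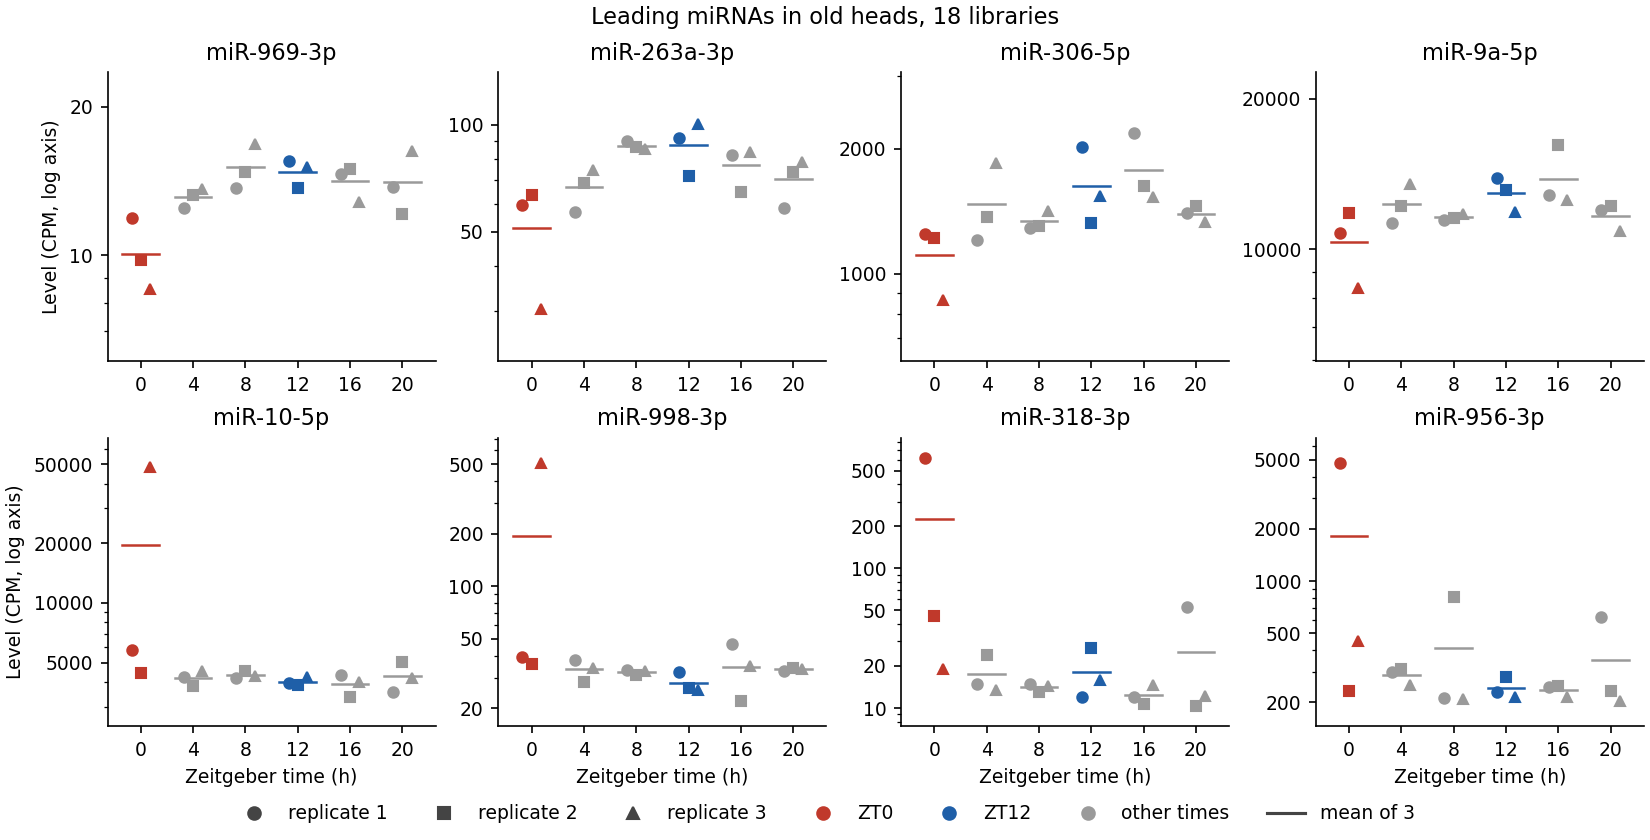
Levels (CPM, log axes) of 8 leading miRNAs in all 18 old libraries against zeitgeber time in hours, with 1 symbol per replicate number and a line at the mean of 3. The upper row shows ZT0 as the lowest mean of the 6 times. The lower row shows 1 ZT0 library far above the rest, replicate 3 for miR-10-5p and miR-998-3p and replicate 1 for miR-318-3p and miR-956-3p.

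Over the whole day, all 8 leading higher miRNAs had their lowest mean at ZT0, while their highest mean fell at ZT8, ZT12, ZT16 or ZT20. miR-306-5p, for instance, peaked at ZT16 with a mean of 1779 CPM, and miR-263a-3p at ZT12 with 88.1 CPM. This order was common: of the 162 features of at least 10 CPM, 55 had their lowest and 62 their highest mean at ZT0, whereas 12 had their highest and 18 their lowest at ZT12. The ZT0 means include replicate 3, which by itself lay above all 15 libraries of the other times for 45 features and below them for 47. The order of the times without that library was not counted.

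Lower levels at ZT12 came in 2 groups that differed in the ZT0 library behind them. In the first, ZT0 replicate 3 was high. miR-10-5p, from the Hox gene cluster (3R, 6809506 to 6809582, minus strand, exonic in lncRNA:CR42651), had 5826, 4451 and 48691 CPM at ZT0 and 3952, 3864 and 4215 CPM at ZT12. The groups did not overlap, and replicate 3 was 11.6 times the median of the 15 old libraries of the other times. The log2 difference of -2.29 (SE 0.608, edgeR adjusted p = 0.0982) became -0.33 without ZT0 replicate 3 (adjusted p = 0.545) and -0.05 without replicates 1 and 3.

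miR-998-3p behaved alike, with 39.2, 35.8 and 508 CPM at ZT0 and 32.2, 26.1 and 25.6 CPM at ZT12. Its log2 difference was -2.79 (SE 0.721, edgeR adjusted p = 0.0982) and -0.39 without ZT0 replicate 3. It shares an intron of E2f1, a cell cycle transcription factor gene, with miR-11 (chromosome 3R, minus strand, 21621879 to 21622021 and 21622497 to 21622571). miR-11-5p stood at 2149, 1758 and 4521 CPM at ZT0 and near 1790 CPM in each ZT12 library, so only replicate 3 was far from the rest (log2 difference -0.65, and -0.09 without it). The abundant miR-11-3p, a member of the K box family that restrains cell death genes, differed by -0.40, by -0.08 without ZT0 replicate 3 and by 0.20 without replicates 1 and 3.

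Other arms with this pattern were miR-278-5p (1092, 1021 and 4882 CPM at ZT0 against 1025, 798 and 802), miR-305-3p (6625, 6006 and 15594 CPM against 6224, 4869 and 5708) and miR-317-3p (3805, 4174 and 9244 CPM against 3976, 2219.8 and 4176). In each only replicate 3 lay far above the ZT12 libraries. Their log2 differences of -1.41, -0.75 and -0.73 became -0.24, -0.14 and -0.18 without it. miR-184-3p, needed in the female germline, had 101337, 85006 and 594658 CPM at ZT0 and 102277, 123413 and 82544 CPM at ZT12. Its sign changed without replicate 3, from -1.34 (SE 0.511) to 0.17 (SE 0.202), and that of miR-263a-5p changed from -1.21 to 0.01.

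A pair from 1 locus was also high in replicate 3, by less. miR-100-5p and miR-125-5p are cut from the same let-7 complex transcript (lncRNA:let7C, chromosome 2L, plus strand, hairpins 18471434 to 18471533 and 18472315 to 18472424), which acts in the passage to the adult stage and in the adult nervous system. miR-100-5p stood at 348, 339 and 733 CPM at ZT0 and at 288, 271 and 262 CPM at ZT12. miR-125-5p stood at 1935, 1902 and 4165 CPM at ZT0 and at 1372, 1651 and 1611 CPM at ZT12. The groups did not overlap for either arm. Among ZT0 replicates 1 and 2 alone they did not overlap either, as for miR-10-5p and miR-998-3p. Both log2 differences were -0.79 (SE 0.228 and 0.229, edgeR adjusted p = 0.115 for each). Without ZT0 replicate 1 both passed (-0.89 for each, adjusted p = 0.0457 for each), and without ZT0 replicate 3 the differences were -0.29 and -0.28. miR-125-5p was the 1 feature of at least 10 CPM whose ZT0 libraries all lay above the other 15 (1233 to 1848 CPM). The third member, let-7-5p, had overlapping groups (21955, 24982 and 37703 CPM against 27310.3, 23828 and 20589, log2 difference -0.24), and its sign changed with library totals alone (0.04) and without ZT0 replicate 3 (0.06).

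In several hairpins the excess in ZT0 replicate 3 was in 1 arm, and the ratio of the arms is given for 4 of them. For miR-263a the ratio of 5p to 3p was 5657 there and between 291 and 635 in the other 5 libraries. For miR-10 that ratio was 30.2 against 1.80 to 2.51, and for miR-278 it was 1.58 against 0.144 to 0.21. For miR-998, where the 3p arm was in excess, it was 0.344 against 6.39 to 11.9. The opposite arms of miR-10, miR-278 and miR-998 differed between ZT12 and ZT0 by 0.06, 0.11 and 0.22. Further hairpins had a 1-arm excess in ZT0 replicate 3, relative to the median of the 15 old libraries of the other times. There miR-184-3p was at 5.98-fold and miR-184-5p at 1.11-fold, and miR-284-3p at 5.54-fold and miR-284-5p at 0.952-fold. miR-305-3p was at 2.53-fold and miR-305-5p at 0.572-fold. In other hairpins both arms were high in that library: relative to the median of the 15 libraries of the other times, miR-11-5p was at 2.53-fold and miR-11-3p at 1.82-fold, and miR-927-5p at 3.31-fold and miR-927-3p at 1.58-fold. Among 45 hairpins with both arms at 10 CPM or more, the arms differed in the same direction in 20 and in opposite directions in 25.

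A young library had a like excess. On the scale of all 36 libraries, 19 features of ZT0 replicate 3 in old heads were over 2-fold above the median of the other 17 old libraries and higher than each of them. In young heads 14 features of ZT0 replicate 1 met the same rule, and 9 features were in both sets, which is 47.4% of the old and 64.3% of the young set. They include miR-184-3p (5.57-fold in the old and 7.11-fold in the young library), miR-10-5p (10.6-fold and 6.21-fold), miR-998-3p (14.3-fold and 6.22-fold) and miR-263a-5p (4.47-fold and 3.90-fold). Among the other 34 libraries the highest number of such features was 5, in old ZT0 replicate 1. The part of this excess in the differences above was not tested beyond leaving the library out.

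**Figure D3:**
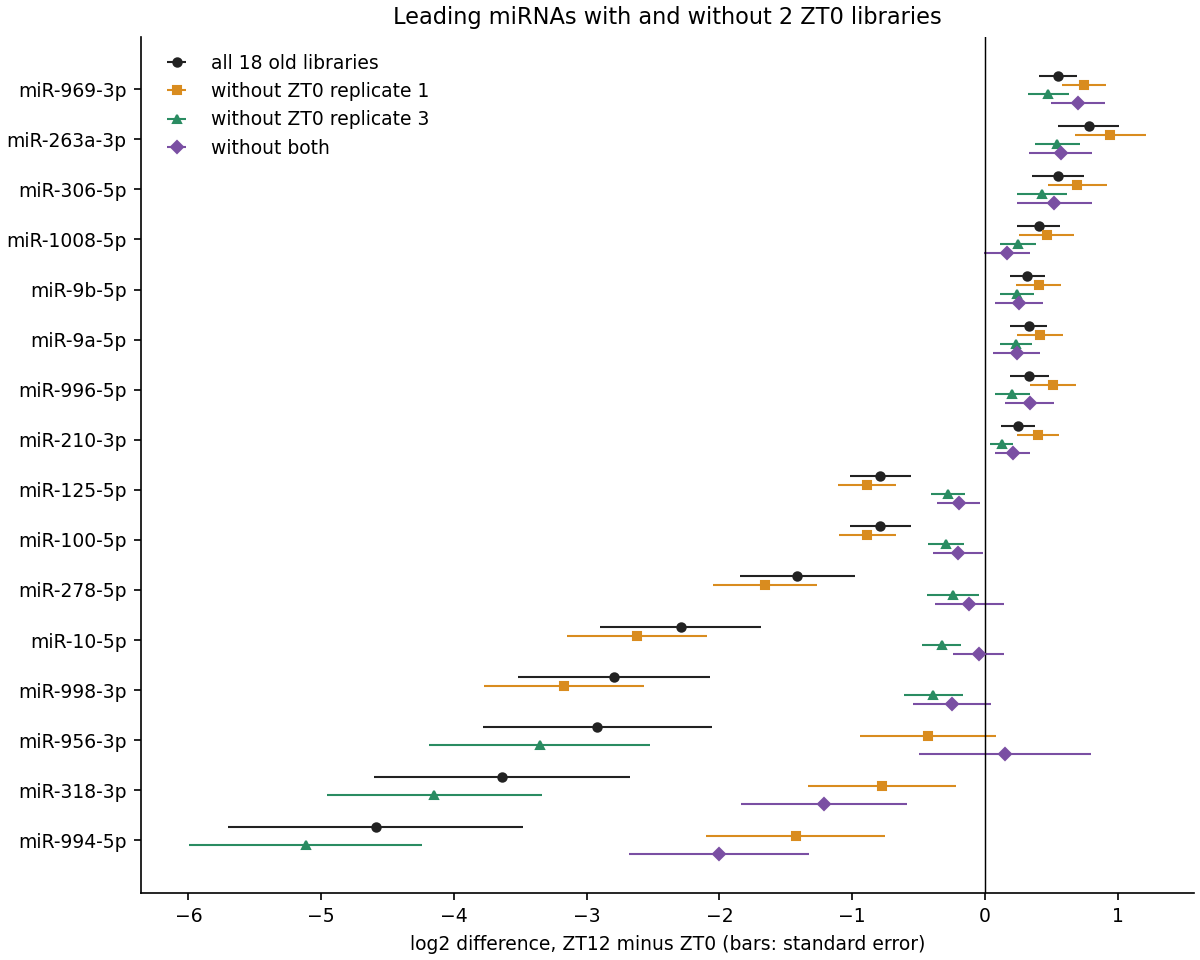
Log2 difference (ZT12 minus ZT0) with its standard error for the 8 leading higher and 8 leading lower miRNAs, fitted with all 18 old libraries, without ZT0 replicate 1, without ZT0 replicate 3 and without both. The higher ones stay above 0 in all 4 fits (0.13 to 0.95) and are smaller without replicate 3 than with all libraries. The lower ones shrink towards 0 when replicate 3 (5 arms) or replicate 1 (3 arms) is left out.

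In the second group of lower levels ZT0 replicate 1 was high, and its leading members are the ovary miRNAs. miR-318-3p, found in follicle cells (chromosome 3R, 10408302 to 10408369, plus strand), had 616, 45.3 and 19.0 CPM at ZT0 and 12.0, 26.8 and 15.9 CPM at ZT12. miR-994-5p, from the neighbouring hairpin (10408137 to 10408227), had 78.7, 5.09 and 1.21 CPM at ZT0 and 0.924, 1.37 and 1.24 CPM at ZT12. miR-989-3p, which acts in border cell migration, had 26.4, 0.527 and 0.996 CPM at ZT0 and 0.336, 0.663 and 0.311 CPM at ZT12. In all 3 the groups overlapped: replicate 3 of ZT0 lay within the ZT12 range for miR-318-3p and miR-994-5p, and replicate 2 for miR-989-3p. The log2 differences were -3.64, -4.59 and -4.40 (SE 0.967, 1.11 and 1.08), each with an edgeR adjusted p of 0.0982. Without ZT0 replicate 1 they were -0.78, -1.43 and -0.69, with adjusted p between 0.389 and 0.598. Without ZT0 replicate 3 all 3 passed, with adjusted p = 0.0145, 0.0115 and 0.0145.

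miR-956-3p (hairpin at 3L, 11773731 to 11773878, minus strand, outside genes annotated on that strand) followed the ovary arms with 4807, 234 and 454 CPM at ZT0 and 229, 281 and 216 CPM at ZT12. Its log2 difference was -2.92 (SE 0.862, edgeR adjusted p = 0.117), and 0.15 without ZT0 replicates 1 and 3. In the same library miR-311-3p and miR-312-3p, neighbours in the miR-310 cluster on chromosome 2R, were over 2-fold above all other old libraries. They differed by -1.44 and -1.19, and by -0.16 and -0.06 without ZT0 replicates 1 and 3.

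The most abundant miRNAs overlapped between the times. miR-8-3p, a growth regulator of the fat body, stood at 180448 ± 41025 CPM at ZT0 and 184483 ± 19498 CPM at ZT12 (SD, n = 3 each), a log2 difference of 0.03 with a 95% interval of -0.30 to 0.37. miR-276a-3p, which acts on the clock gene timeless, stood at 41393 ± 4913 and 45003 ± 3143 CPM, with an interval of -0.11 to 0.35. For bantam-3p, a growth regulator that also targets Clock, the values were 73949, 58070.3 and 42177 CPM at ZT0 and 75239.8, 71178 and 80139 CPM at ZT12. That difference was 0.38 (SE 0.2, edgeR adjusted p = 0.432, interval -0.05 to 0.80), and 0.23 without ZT0 replicate 3. miR-14-3p, which acts in fat metabolism, had an interval of -0.73 to 0.44, and miR-34-5p, linked to ageing and neuroprotection, one of -0.45 to 0.29. miR-277-3p, a regulator of amino acid breakdown from the same locus as miR-34, had an interval of -0.11 to 0.41. miR-999-3p had an interval of -0.44 to 0.39.

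By group, the median log2 difference of all tested features was -0.03, and 155 were positive and 178 negative. Of 24 tested arms of clock and rest-activity regulators 0 passed, 3 were higher and 1 was lower without overlap, where 4.2% and 6.01% of all tested features were, and their median was 0.01. Within that list miR-279-3p (1453, 1332 and 2220.1 CPM against 2044, 912 and 1367) and miR-124-3p (415, 475 and 432 CPM against 441, 342 and 492) overlapped widely, and miR-375-3p stood at 113, 142 and 115 CPM against 138, 160.5 and 138. The 15 arms of the eye and sense organ list had a median of -0.04, and 5 were higher without overlap (4.2% of all tested features were): miR-7-5p, miR-210-3p, miR-263a-3p, miR-9a-5p and miR-996-5p. Of these 5, 3 had an unadjusted p under 0.05, where 12 of all 333 tested features were higher at that p. The median of this list was -0.01 without ZT0 replicate 1 (all features 0.02) and 0.05 without ZT0 replicate 3 (all features 0.01). Without both, where replicate 2 alone stands for ZT0, it was 0.17 where all features had 0.05.

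Among the other lists, the 20 neuronal arms had a median of 0.01, with 1 higher and 2 lower without overlap, the lower ones being miR-137-3p (-0.34) and miR-190-3p (-1.45, and -0.32 without ZT0 replicate 3). The 15 arms of fat body and metabolism had a median of -0.08. Of them 4 had an unadjusted p under 0.05, all lower, where 35 of all 333 tested features were lower at that p. These 4 were miR-278-5p, miR-305-3p, miR-8-5p (-0.61, and -0.29 without ZT0 replicate 3) and miR-275-3p (-0.72). The last of these was at 477, 829.7 and 915 CPM at ZT0 and at 464, 510.0 and 375 CPM at ZT12, and differed by -0.78 without ZT0 replicates 1 and 3, where replicate 2 alone stands for ZT0. The medians were -0.10 for the 6 arms of the let-7 complex, -0.06 for the 6 of the cluster that holds miR-34 and miR-277, 0.09 for the 18 of the K box family and 0.19 for the 3 muscle arms. With library totals in place of TMM factors the median of all features moved to 0.17, and the medians of the let-7 complex (0.12), the miR-34 cluster (0.16), the eye list (0.22) and the fat body list (0.11) changed sign with it. Of the miRNAs of other tissues, the 3 ovary arms had a median of -4.40. It was -1.21 without ZT0 replicates 1 and 3, where replicate 2 alone stands for ZT0. The 8 testis arms had a median of -0.36 and the 5 early embryo arms of 0.05. No arm of miR-959 to miR-964, a cluster tied to feeding time, passed the filter, and its 12 listed arms summed to 1.28 to 1.75 CPM.

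Among piRNA features, 6 of 67 passed in edgeR's quasi-likelihood test, all lower at ZT12 (8.96% called lower and 0% called higher). At an unadjusted p under 0.05, 3 features were higher and 18 lower. DESeq2 called 3 higher and 7 lower, and limma on log2(RPM + 1) called 0. The piRNA RPM is relative to totals of 71.4 to 89.4 M, so clusters with few counts lie below the pseudocount of 1. For such clusters limma damps differences, and its 0 calls say little about them. Without overlap, 5 features (7.46%) were higher and 3 (4.48%) lower. All 6 calls ended without ZT0 replicate 1, where 0 features passed and 4 had an unadjusted p under 0.05. The count was also 0 without any single ZT12 library, 28 without ZT0 replicate 2 and 15 without ZT0 replicate 3.

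The called clusters were high in 1 library. Cluster 41 of the first set (clu-41_set1) fell from 2132, 111 and 132 CPM at ZT0, on the scale of the piRNA library, to 96.8, 94.1 and 127 CPM at ZT12. The log2 change was -2.94 (SE 0.736, edgeR adjusted p = 0.0186), and -0.22 (SE 0.215) without ZT0 replicate 1. Cluster 16 of the first set (clu-16_set1) fell from 245, 49.7 and 34.0 CPM to 20.5, 26.0 and 26.4 CPM (-2.23, SE 0.541, edgeR adjusted p = 0.0186). Cluster 53 of the second set (clu-53_set2) fell from 599, 121 and 99.3 CPM to 66.3, 81.2 and 70.6 CPM (-1.95, SE 0.473, edgeR adjusted p = 0.0186). In clusters 16 and 53 the groups did not overlap even among ZT0 replicates 2 and 3, and the differences were -0.75 (SE 0.289) and -0.59 (SE 0.211) without replicate 1. Their counts were low: clu-16_set1 had 6.52 to 13.95 deposited counts in the libraries other than ZT0 replicate 1, and clu-53_set2 had 19.1 to 34.1.

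The other 3 called clusters were of the second set, clu-11_set2 (-1.62), clu-73_set2 (-1.56) and clu-79_set2 (-1.52), each with an edgeR adjusted p of 0.033. Their ZT0 replicate 1 stood at 5.95, 6.06 and 6.05 times the median of the 15 old libraries of the other times. Without it the differences were -0.48, -0.27 and -0.22. In this library 12 of 31 first-set and 17 of 36 second-set clusters lay above those 15 libraries, together with the ovary arms of the miRNA tables. On the same scale 14 of the 31 first-set and 12 of the 36 second-set clusters lay below all 15. How far the high clusters are linked to the excess of the ovary arms was not tested.

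**Figure D4:**
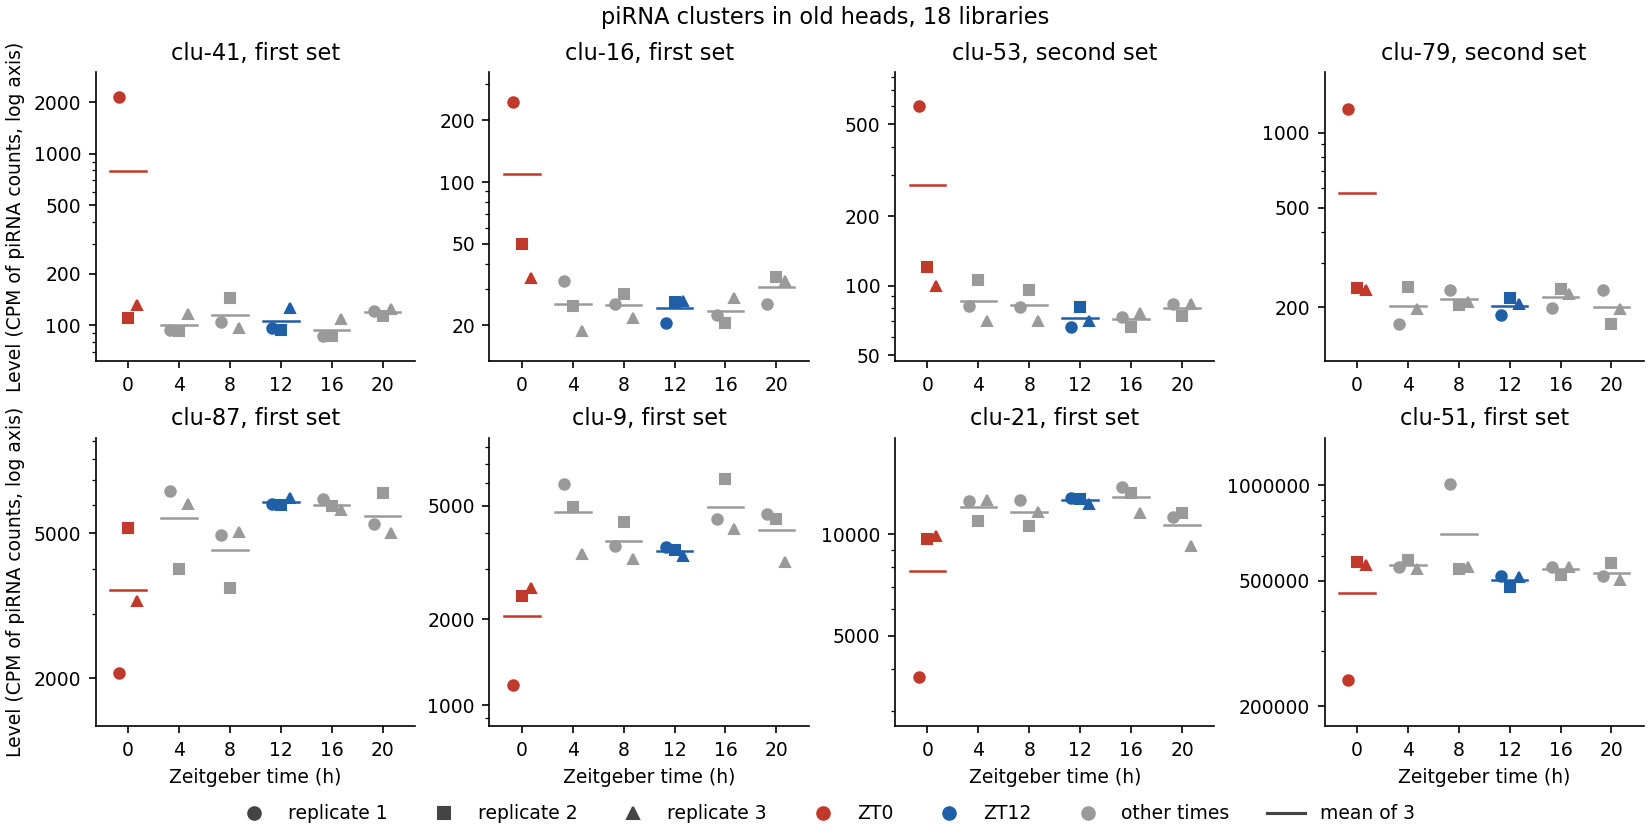
Levels (CPM of piRNA counts, log axes) of 8 piRNA clusters in all 18 old libraries against zeitgeber time in hours, with 1 symbol per replicate number and a line at the mean of 3. The upper row shows 4 called clusters, in which ZT0 replicate 1 lies far above the rest. The lower row shows 3 clusters with higher levels at ZT12 and clu-51_set1, the cluster with the most piRNA counts.

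Higher levels at ZT12 were measured for 3 larger clusters of the first set, none of which passed in edgeR's test with both sets, TMM factors and all 18 libraries. DESeq2 called all 3 (adjusted p = 0.0265 for clu-87_set1, 0.0362 for clu-21_set1 and 0.0424 for clu-9_set1), edgeR with RLE factors called clu-87_set1 (adjusted p = 0.0481), and edgeR called all 3 without ZT0 replicate 2 and clu-9_set1 without ZT0 replicate 3. clu-21_set1 stood at 3773, 9687 and 9915 CPM at ZT0 and at 12849, 12762 and 12277 CPM at ZT12 (log2 difference 0.70, SE 0.258, edgeR adjusted p = 0.0743). clu-9_set1 stood at 1182, 2423 and 2569.9 CPM at ZT0 and at 3569, 3487 and 3321 CPM at ZT12 (0.75, SE 0.275, adjusted p = 0.0743). clu-87_set1 stood at 2063, 5169.7 and 3253 CPM at ZT0 and at 6030.1, 6001 and 6258 CPM at ZT12 (0.80, SE 0.267, adjusted p = 0.0548). In all 3 the groups did not overlap and the ZT12 libraries lay close to each other. The ZT0 values of clu-9_set1 also lay below all 15 old libraries of the other times (3173 to 6181 CPM).

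The TMM factor of 2.11 divides the levels of ZT0 replicate 1, so plain shares of the piRNA counts are given too. clu-21_set1 held 0.795%, 0.905% and 0.958% at ZT0 and 1.31%, 1.43% and 1.28% at ZT12. clu-9_set1 held 0.249%, 0.226% and 0.248% at ZT0 and 0.364%, 0.391% and 0.347% at ZT12. clu-87_set1 held 0.435%, 0.483% and 0.314% at ZT0 and 0.615%, 0.673% and 0.653% at ZT12. On these shares ZT0 replicate 1 no longer stood apart, and the groups still did not overlap. A fit of the first set alone was chosen after seeing the data and adjusts over 31 features only. In it all 3 passed (log2 changes of 0.63, 0.67 and 0.71, edgeR adjusted p = 0.0279 for each). With both sets and library totals alone clu-21_set1 passed (0.60, adjusted p = 0.0298). Without ZT0 replicate 1 in the fit of both sets the 3 log2 changes were 0.37, 0.48 and 0.54, with adjusted p from 0.447 to 0.723.

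The largest clusters overlapped between the times. clu-51_set1 and clu-90_set1 together held 78.4% to 83.6% of the piRNA counts of the 6 libraries. Their log2 differences were 0.13 (SE 0.283, 95% interval -0.46 to 0.73) and 0.12 (SE 0.28), and both changed sign without ZT0 replicate 1 (-0.17 and -0.18).

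Of 7 measures of library composition, none could pass, since the smallest p of an exact permutation test of 3 against 3 libraries is 0.1. There were 13.3, 14.7 and 11.03 piRNA counts per 1000 miRNA counts at ZT0 and 13.4, 16.1 and 12.0 at ZT12 (exact 2-sided p = 0.7). The rr features held 0.354%, 0.392% and 0.451% of the miRNA counts at ZT0 and 0.531%, 0.653% and 0.430% at ZT12, a log2 difference of 0.42 (exact p = 0.2), with ZT12 replicate 3 inside the range of ZT0. The share of miR-184-3p (exact p = 0.7), the share of the second piRNA set (exact p = 1) and the summed ovary arms (exact p = 0.4) differed by the single ZT0 libraries named above. The miRNA and the piRNA shares of the total behind the deposited piRNA RPM had an exact p of 0.9 each. Adjusted over the 7 measures, every p was 1.

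Whether the difference depended on age was tested against young heads of 5 days at the same times, 3 libraries each. Of 363 features 0 passed (0%) in edgeR's quasi-likelihood test, and 33 had an unadjusted p under 0.05. DESeq2 called 1, miR-306-5p. On the scale of all 36 libraries it stood at 1142, 1135 and 750.3 CPM at ZT0 and 1871, 1235 and 1423 CPM at ZT12 in old heads. In young heads it stood at 1381, 1432 and 1109 CPM at ZT0 and at 1067, 880.1 and 953 CPM at ZT12. All old ZT12 libraries were thus above the old ZT0 libraries, and all young ZT12 libraries below the young ZT0 libraries. The difference of 0.58 in old heads and of -0.44 in young heads gave an age dependence of 1.02 (SE 0.249, edgeR adjusted p = 0.126). It passed with RLE factors (1.11, adjusted p = 0.0439) and without old ZT12 replicate 2 (1.19, adjusted p = 0.0441).

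**Figure D5:**
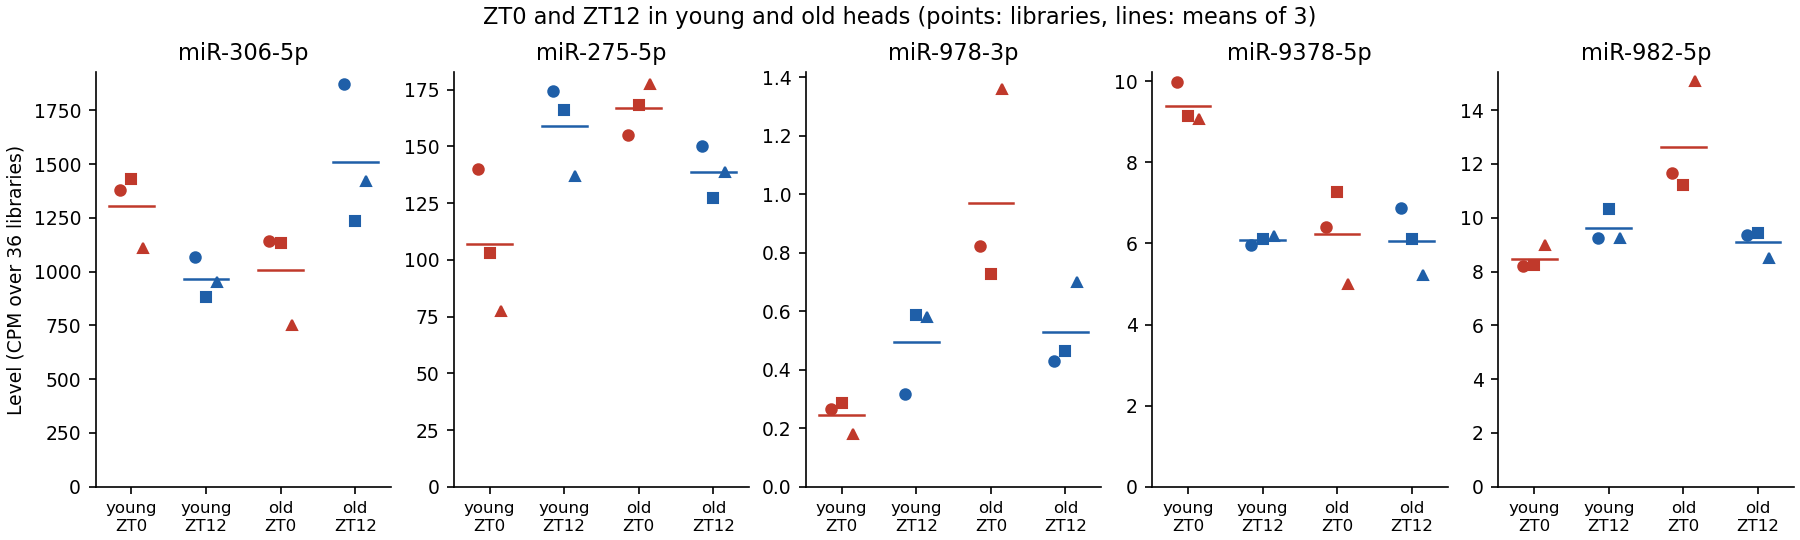
Levels (CPM over 36 libraries, linear axes from 0) at ZT0 and ZT12 in young and old heads of the 5 miRNAs with the smallest p for dependence of the difference on age. Points are libraries with 1 symbol per replicate number, lines are means of 3. miR-306-5p is higher at ZT12 in old and lower in young heads.

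The next smallest p belonged to miR-275-5p, with 155, 168 and 178 CPM at ZT0 and 150.1, 127 and 139 CPM at ZT12 in old heads, and with 139.9, 103 and 77.6 CPM and 174, 166 and 137 CPM in young heads. Its groups overlapped in young heads (age dependence -0.84, SE 0.256, edgeR adjusted p = 0.381). miR-9378-5p was near 6 CPM at both times in old heads (6.23 ± 1.15 and 6.06 ± 0.825, SD, n = 3 each) and at 9.40 ± 0.498 and 6.09 ± 0.108 CPM in young heads. The testis miRNAs miR-982-5p and miR-978-3p followed, both below in old and above in young heads at ZT12, at 8.21 to 15.1 CPM and at 0.182 to 1.36 CPM over both ages.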

How the data were processed

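Small RNA libraries were sequenced from whole heads. Per the labels' protocols, RNA was extracted with TRIzol and TruSeq libraries were made with an oligonucleotide blocking 2S rRNA. Bowtie and the builds BDGP6 and dm6 are named in the submitters' processing notes without versions. The authors deposited expected counts (23.2% of miRNA values not whole) per miRNA arm and per piRNA cluster, and the same values as RPM. The miRNA RPM is relative to the miRNA counts, and the piRNA RPM to a larger, unnamed total. The file names call the values adjusted, which is not defined in the sources used here.

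Rounded counts went into edgeR 4.0.16 (R 4.3.3): filterByExpr, TMM, a quasi-likelihood fit of 18 old libraries with 6 time groups, contrast ZT12 minus ZT0, Benjamini-Hochberg over all tested features, threshold 0.05. Dependence on age was an interaction over 36 libraries. Composition measures had exact permutation tests. The fits were tested on simulated data. Alternatives were DESeq2 1.42.0, limma 3.58.1 (pseudocount 1), other scalings and filters, and left-out libraries. Named features were, at a mean of at least 10 CPM, the 8 smallest p in each direction, the 10 most abundant, a fixed list, up to 4 per list, the 5 smallest p for age, and for piRNA up to 5 called or the 3 smallest p in each direction. Others were named after their values were seen: miR-9c-5p, miR-79-3p, miR-311-3p, miR-312-3p, miR-927-5p, miR-927-3p, miR-210-5p, the second arms of hairpins, clu-79_set2, clu-51_set1 and clu-90_set1. Near-identical copies (correlation over 0.999, totals within 2%) counted as 1. Hairpins were placed by name in the Ensembl BDGP6 annotation, and all 273 tested miRBase arms matched. The members and lists were chosen with earlier results of these data known.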

Additional observations from a re-analysis of the deposited data

Results flagged for a closer look

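A set of 3 results were singled out because all 3 ZT12 libraries lay on one side of all 3 ZT0 libraries in old heads and on the opposite side in young heads, and the difference was then tested. The same libraries gave the choice and the test, so the separation is no separate support. In old heads alone, 4.2% of all tested miRNA features were higher and 6.01% lower without overlap. For miR-306-5p the age dependence was 1.02 on the log2 scale (SE 0.249, edgeR adjusted p = 0.126), from a difference of 0.58 in old and -0.44 in young heads. For miR-982-5p it was -0.65 (SE 0.222, edgeR adjusted p = 0.381), from -0.47 in old and 0.18 in young heads. For miR-978-3p it was -1.87 (SE 0.578, edgeR adjusted p = 0.381), at 0.73 to 1.36 CPM at ZT0 and 0.429 to 0.699 CPM at ZT12 in old heads. Groups of 3 libraries are too small for a check of single outlying libraries within a group.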

How the results depend on the processing

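The 0 miRNA calls became 6 with no filter on low counts and 11 with DESeq2, and between 0 and 23 when 1 of the 6 libraries was left out. They stayed at 0 with RLE factors, library totals, a 10 CPM filter, limma, the 6 libraries alone, all 36 libraries, the RPM total, and without miR-184-3p or rr features. The 6 piRNA calls became 14 with a 10 CPM filter, 10 with DESeq2 and 15 with scaling to the miRNA library. They became 0 with limma, whose pseudocount of 1 damps the differences of clusters with few counts. They also became 0 with the 6 libraries alone and with all 36 libraries, and ranged from 0 to 28 when 1 library was left out. Either piRNA column set alone, chosen after seeing the data, gave 5 and 4 calls. The 0 age-dependent miRNAs became 1 (miR-306-5p) with DESeq2 and 1 with RLE factors, and ranged from 0 to 1 with 1 library left out. The 34 non-overlapping miRNA features became 58 and 59, and the 8 piRNA features 16 and 18, when ZT0 replicate 1 or 3 was left out, as fewer libraries overlap less. The cause of the other changes was not tested.

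Same-numbered ZT0 and ZT12 libraries had correlations of deviations of -0.20, -0.24 and -0.26, and differently numbered ones of 0.01 to 0.36. With 3 libraries a time, and 2 ZT0 libraries that stand apart, these values cannot tell whether replicate numbers pair the samples. With a replicate block there were 0 miRNA calls (49 at an unadjusted p under 0.05), 0 piRNA calls (0 also with the 6 libraries alone) and 0 age-dependent miRNAs. The composition measures under the block, and with single libraries left out, moved by less than 1 SD. Of 1358 values of 69 named features under alternatives, 0 reversed a called direction, 52 newly passed, 49 no longer passed, and 76 of 22 uncalled features had the opposite sign. Median log2 differences of all features moved from -0.03 to 0.17 (library totals) and 0.14 (RPM total, limma) for miRNA, and from -0.02 to -0.29 (library totals), -0.44 (miRNA library) and -0.26 (36 libraries) for piRNA. Limits are 3 libraries a group, 2 ZT0 libraries that stand apart, and, for the leading falls, differences that shrink without 1 of them. The leading rises also shrink without ZT0 replicate 3 but stay above 0, for instance miR-263a-3p from 0.78 to 0.55 and miR-996-5p from 0.34 to 0.21.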

Other observations

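Of all 333 tested miRNA features, 14 (4.2%) were higher and 20 (6.01%) lower without overlap. Of these, 9 and 11 averaged 10 CPM or more, and the rest were at lower levels. miR-983-5p, a testis miRNA, stood at 0.616, 0.619 and 0.711 CPM at ZT0 and at 1.01, 0.87 and 1.42 CPM at ZT12, a log2 difference of 0.74 (edgeR adjusted p = 0.26). Its neighbour on chromosome X, miR-303-3p, went the other way, with 0.806, 0.642 and 0.569 CPM at ZT0 and 0.336, 0.166 and 0.399 CPM at ZT12 (-1.17, adjusted p = 0.26). Both values changed by less than their SE without ZT0 replicates 1 and 3 (0.87 and -0.99). At 10 CPM or more, miR-210-5p, the minor arm of the photoreceptor miRNA, differed by -0.35 with overlapping groups, while its 3p arm differed by 0.25. For miR-9a the 5p arm differed by 0.33 and the 3p arm by -0.26 (SE 0.341), with overlapping groups for the 3p arm. Without ZT0 replicate 3 the difference of miR-9a-3p was 0.05. Arms of opposite direction were found in 25 of the 45 hairpins with both arms at that level.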
